A study of Rattus norvegicus with 17 samples.

Results

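Irf7, Oas1a, Cd74 and Ifi30 are genes of the interferon response and of antigen presentation, described here in endothelium laser-captured from rat vessels after an arteriovenous fistula operation. They were taken by symbol: every gene probe with a deposited normalized value whose accession maps to one of these names in RefSeq was kept. Each of the 4 genes has 1 probe on the array and 1 with a value, which makes 4 probes among the 9879 that could be tested and 4 symbols among 2878.

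The operation joins the superficial epigastric vein of the rat to the common femoral artery, modelling dialysis access, and tissue was taken 13 to 14 days later. Each of 17 regions gave 1 single-colour array. The stenotic side branch (n = 3) is a side branch of the epigastric vein with a narrowed lumen, after fistula surgery. The NIH vein (n = 5) is epigastric vein that carried arterial flow and developed neointimal hyperplasia (a thickened inner wall), after fistula surgery. The femoral artery (n = 3) is common femoral artery under arterial flow and without a lesion, after fistula surgery. The venous-flow vein (n = 6) is epigastric vein beyond the ligature, which kept its normal flow and had no lesion. Its labels name ligation surgery, so that surgery and vessel cannot be told apart in comparisons with it. The series names 6 rats for 17 regions with no label saying which rat a region is from. Some regions therefore share an animal, which no test here could take into account, so p-values over regions may be too small.

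The data come in 2 forms, raw scanner output with a file per array and a table of normalized log2 values, and these place 12 of the 17 arrays with different samples. Signal minus background of every scanner file had a rank correlation of 1.0 with exactly 1 column of the value table, and at most 0.923 with any other. For the 5 NIH vein arrays that column was the sample of the file. The 3 files recorded as stenotic branch match venous-flow veins 1 to 3 of the table, and the 3 files recorded as femoral artery match venous-flow veins 4 to 6. The files of venous-flow veins 1, 5 and 6 match the stenotic branch columns, and those of venous-flow veins 2, 3 and 4 match the femoral artery columns. The sources do not settle which placement is right, so the results for the 4 genes are given for both, named "by the scanner files" and "by the value table". In bulk RNA of this kind, fewer cells of a type and less RNA per cell cannot be told apart either.

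Interferons are cytokines that act on almost every cell type, including endothelium. Type I interferon acts on many of its target genes through a promoter element, the interferon-stimulated response element (ISRE). Interferon gamma, by way of the class II transactivator CIITA, switches on the genes of MHC class II presentation. Irf7 encodes a transcription factor that is itself induced by interferon and drives further interferon production. Oas1a encodes an oligoadenylate synthetase, an antiviral enzyme that activates RNase L. Cd74 encodes the invariant chain, which escorts MHC class II molecules to the compartment where they are loaded with peptide. Ifi30 encodes GILT, an interferon gamma-inducible lysosomal thiol reductase that unfolds antigens before they are loaded. Professional antigen-presenting cells such as macrophages make much Cd74 and Ifi30, and endothelium can make class II molecules under interferon gamma.

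The bases upstream of the 4 genes are shown because Irf7 and Oas1a hold matches to the ISRE there and the others do not. The sequences are the 250 bases before each start in the RefSeq table of build GRCr8, on the strand of the gene. Capitals mark runs of 10 or more letters that match the ISRE consensus (GAAA, any 2 bases, GAAA) on either strand, and runs of 5 letters that match the CCAAT box or its reverse complement ATTGG.
Irf7 (chr1:205800024-205800273, minus strand): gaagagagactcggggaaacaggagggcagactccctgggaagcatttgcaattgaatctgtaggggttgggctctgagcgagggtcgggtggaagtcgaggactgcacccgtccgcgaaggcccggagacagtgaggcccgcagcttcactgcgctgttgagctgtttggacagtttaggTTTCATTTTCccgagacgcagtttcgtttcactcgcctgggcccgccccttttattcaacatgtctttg
Oas1a (chr12:41330216-41330465, plus strand): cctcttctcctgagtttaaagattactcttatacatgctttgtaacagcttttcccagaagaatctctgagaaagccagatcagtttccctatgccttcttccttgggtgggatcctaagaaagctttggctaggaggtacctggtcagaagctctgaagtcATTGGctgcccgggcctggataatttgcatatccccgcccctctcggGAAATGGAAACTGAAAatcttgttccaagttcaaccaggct
Cd74 (chr18:56526956-56527205, plus strand): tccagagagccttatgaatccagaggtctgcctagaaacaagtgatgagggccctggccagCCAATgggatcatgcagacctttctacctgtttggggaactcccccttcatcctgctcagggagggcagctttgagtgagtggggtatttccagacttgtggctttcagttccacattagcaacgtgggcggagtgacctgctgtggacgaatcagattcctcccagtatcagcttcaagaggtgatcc
Ifi30 (chr16:18709320-18709569, plus strand): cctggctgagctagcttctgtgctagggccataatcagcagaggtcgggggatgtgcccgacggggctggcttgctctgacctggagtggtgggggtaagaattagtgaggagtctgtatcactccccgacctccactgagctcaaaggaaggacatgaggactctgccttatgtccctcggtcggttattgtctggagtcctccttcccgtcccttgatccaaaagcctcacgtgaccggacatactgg

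Positions count the first base of a match from the gene's start. The Irf7 promoter holds 1 match to the ISRE consensus, TTTCATTTTC at position -69. The Oas1a promoter holds 2 that overlap, GAAATGGAAA at -41 and GAAACTGAAA at -35. Neither strand of the Cd74 and Ifi30 windows holds one. Over all 33469 promoters of the table, searched in windows of 250 bases before and 50 after the start, 1312 (3.92%) hold this consensus on either strand. A CCAAT box, which is part of the Y box of MHC class II promoters, stands at -189 in Cd74 and, on the other strand, at -88 in Oas1a, and 37.49% of promoters hold one. These are matches of letters and no evidence of binding.

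Levels below are log2 normalized intensities of the single probe of each gene, so levels of different genes are not compared. Those by the scanner files were background-corrected and quantile normalized here, with a floor of 5.64 and a median over probes of 6.12. Those by the value table are the authors' log2 values, with a minimum of 4.61 and a median of 5.51. By the scanner files Irf7 and Cd74 lay close to the floor in most arrays, where differences are compressed.

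Irf7 was highest in 2 of the 3 arrays filed as stenotic branch. Its level by the scanner files was 7.48, 6.77 and 7.54 in the stenotic branch, and 6.05, 6.38, 6.63, 5.86 and 5.99 in the NIH vein. It was 6.84, 5.89 and 5.96 in the femoral artery, and ran from 5.92 through a median of 6.24 to 6.40 in the venous-flow vein. The stenotic branch lay above every NIH vein and venous-flow vein array, while femoral artery 1 lay inside its range. The means in that form were 7.27 ± 0.43 (SD, n = 3) in the stenotic branch and 6.18 ± 0.31 (n = 5) in the NIH vein. They were 6.23 ± 0.53 (n = 3) in the femoral artery and 6.19 ± 0.22 (n = 6) in the venous-flow vein.

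The value table gave Irf7 a different order. The stenotic branch values were 5.90, 5.91 and 5.85, those of the NIH vein 5.41, 5.87, 6.21, 5.11 and 5.32, and those of the femoral artery 5.20, 5.29 and 5.50. The 6 venous-flow veins in order of number stood at 7.24, 6.39, 7.32, 6.48, 5.16 and 5.27. The highest values thus sat inside the venous-flow vein, which ran from 5.16 to 7.32 (6.31 ± 0.93, SD, n = 6), while the other 11 arrays ran from 5.11 to 6.21. The stenotic branch (5.89 ± 0.03, n = 3) lay above every femoral artery array (5.33 ± 0.16, n = 3) and inside the range of the NIH vein (5.58 ± 0.45, n = 5).

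Oas1a by the scanner files stood at 8.44, 8.43 and 7.78 in the stenotic branch, above each of the other 14 arrays, as 0.466% of all probes did. The NIH vein had 6.12, 7.05, 7.22, 6.28 and 7.15, the femoral artery 6.84, 6.77 and 6.94, and the venous-flow vein ran from 6.19 through a median of 6.70 to 7.58. The mean was 8.22 ± 0.38 (SD, n = 3) in the stenotic branch, against nearly equal means of 6.77 ± 0.52 (n = 5) in the NIH vein, 6.85 ± 0.09 (n = 3) in the femoral artery and 6.79 ± 0.54 (n = 6) in the venous-flow vein. The value table gave the stenotic branch 7.36, 6.97 and 6.48, the NIH vein 5.52, 6.74, 6.93, 5.74 and 6.85, and the femoral artery 5.62, 5.80 and 6.13. Its venous-flow veins 1 to 6 had 8.32, 8.31, 7.59, 6.48, 6.39 and 6.60, so that numbers 1 to 3 lay above numbers 4 to 6 and above all other groups. As with Irf7, the stenotic branch (6.93 ± 0.44) lay above every femoral artery array (5.85 ± 0.26) there, while the NIH vein averaged 6.36 ± 0.67 and the venous-flow vein 7.28 ± 0.91.

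Cd74 varied over a narrow range near the floor. It stood at 6.33, 6.02 and 6.37 in the stenotic branch by the scanner files, above each of the other 14 arrays, which ran from 5.67 to 5.96. The same lack of overlap held for 0.466% of all probes. The means were 6.24 ± 0.20 (SD, n = 3) in the stenotic branch, 5.82 ± 0.10 (n = 5) in the NIH vein, 5.83 ± 0.10 (n = 3) in the femoral artery and 5.80 ± 0.11 (n = 6) in the venous-flow vein. The value table put the stenotic branch at 4.75, 4.86 and 5.16 and the NIH vein at 5.27, 4.84, 5.07, 4.94 and 5.12. The femoral artery had 4.92, 5.15 and 5.19 there, and venous-flow veins 1 to 6 had 5.81, 5.36, 5.87, 5.24, 4.98 and 4.96. All groups overlapped in that form, and the stenotic branch had the lowest mean of the 4, 4.92 ± 0.21. The NIH vein averaged 5.05 ± 0.16, the femoral artery 5.09 ± 0.14 and the venous-flow vein 5.37 ± 0.40 there.

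Ifi30 had the widest range of the 4 genes. It stood at 8.93, 8.53 and 10.49 in the stenotic branch by the scanner files and 8.18, 8.0, 8.74, 8.11 and 7.93 in the NIH vein. The femoral artery had 5.98, 7.38 and 7.09, and the venous-flow vein ran from 6.86 through a median of 7.44 to 8.30. Unlike the other 3 genes, Ifi30 was also high in the NIH vein, where every array lay above every femoral artery array and NIH vein 3 exceeded stenotic branch 2. The mean was highest in the stenotic branch (9.31 ± 1.04, SD, n = 3), next in the NIH vein (8.19 ± 0.32, n = 5), and lower in the femoral artery (6.82 ± 0.74, n = 3) than in the venous-flow vein (7.50 ± 0.47, n = 6). No difference between neighbours in that order was called in the tests below.

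Ifi30 by the value table stood at 6.50, 7.26 and 7.15 in the stenotic branch, the lowest mean of the 4 groups (6.97 ± 0.41, n = 3). The NIH vein had 8.03, 7.84, 8.64, 7.95 and 7.75 (8.04 ± 0.35, n = 5) and the femoral artery 7.09, 7.36 and 8.17 (7.54 ± 0.56, n = 3). Venous-flow veins 1 to 6 had 8.84, 8.41, 10.46, 5.30, 7.13 and 6.78, and thus both the highest and the lowest array of the series (7.82 ± 1.80, n = 6).

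**Figure D1:**
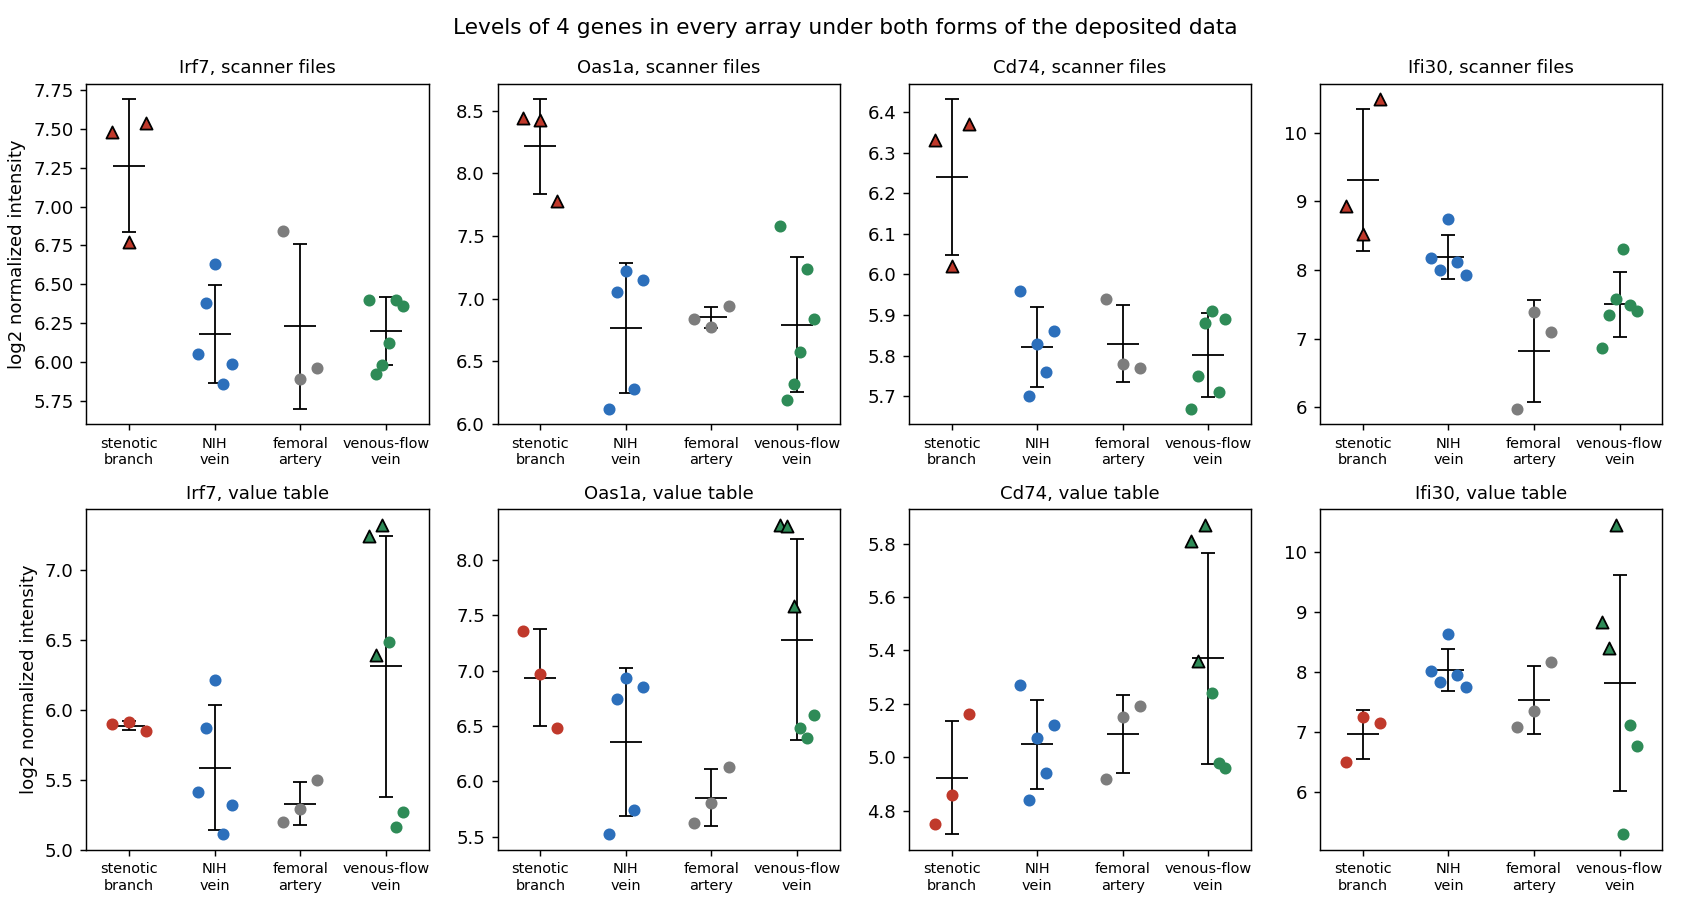
Level of each gene (log2 normalized intensity, vertical axis) in every array by vessel group, by the scanner files above and by the value table below; points are arrays, bars the mean ± SD of the group. Triangles mark the 3 arrays recorded as stenotic branch in the scanner files, which are the columns of venous-flow veins 1 to 3 in the value table: they hold the highest values of Oas1a and Cd74 in both rows.

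The 4 genes were tested over the vessel groups in 1 limma fit to all 9879 probes, with Benjamini-Hochberg adjustment over all of them and an adjusted p under 0.05 as the call. The F test over the 4 groups, by the scanner files, called 2.18% of all probes and 1 of the 4 genes, Ifi30 (limma adjusted p = 0.0342). Cd74 (0.0563), Irf7 (0.0633) and Oas1a (0.0633) missed the threshold. The call of Ifi30 ended when any 1 of 7 arrays was left out, stenotic branch 3, NIH vein 3 or 4, femoral artery 1 or 3, or venous-flow vein 1 or 6, with adjusted p-values of 0.0334 to 0.0808 over the 17 such fits. The same test by the value table called 0.202% of all probes and none of the 4 genes. The limma adjusted p-values were 0.778 for Irf7, 0.776 for Oas1a, 0.778 for Cd74 and 0.911 for Ifi30. At an unadjusted p under 0.05 that F test held 1 of the 4 genes and 599 of the 9879 probes (limma).

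In the stenotic branch against the venous-flow vein, all 4 genes had higher means by the scanner files, and none passed the test after adjustment. All 4 had an unadjusted p under 0.05, as did 1703 of the 9879 probes (limma). The log2 difference was 1.07 (SE 0.24) for Irf7, 1.43 (SE 0.31) for Oas1a, 0.44 (SE 0.09) for Cd74 and 1.82 (SE 0.41) for Ifi30. The limma adjusted p was 0.0523 for Cd74 and 0.0558 for each of the others, in a comparison that called 0.385% of all probes as higher and 0.0202% as lower. Every stenotic branch array lay above every venous-flow vein array for all 4 genes, which held for 7.0% of all probes. The distance to the threshold was small: leaving out 1 array gave between 0 and 4 calls among the 4 genes, while between 0.081% and 1.52% of all probes were called as higher. All 4 were called without NIH vein 1, Irf7, Cd74 and Ifi30 without stenotic branch 2, and Irf7 and Oas1a without venous-flow vein 5. Cd74 was called without NIH vein 2, and Irf7 without femoral artery 1.

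The same difference by the value table had the other sign for all 4 genes. It was -0.42 for Irf7, -0.35 for Oas1a, -0.45 for Cd74 and -0.85 for Ifi30, which was -0.33 without venous-flow vein 3 and -1.36 without venous-flow vein 4 (limma adjusted p for the 4 genes between 0.773 and 0.919, 1 of 4 at an unadjusted p under 0.05), and this comparison called 0.172% of all probes as higher and none as lower. Before adjustment, 624 of 9879 probes had a p under 0.05 in that form (limma). No gene of the 4 had its stenotic branch arrays all above the venous-flow vein, against 2.82% of all probes.

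The stenotic branch against the femoral artery gave the single pairwise call. Ifi30 was higher by 2.49 on the log2 scale by the scanner files (SE 0.47, 5.64-fold, limma adjusted p = 0.0243), with every stenotic branch array above every femoral artery array. This comparison called 1.19% of all probes as higher and 0.668% as lower. Without stenotic branch 3 the difference was 1.91 and no longer called, and the same held without femoral artery 1 (2.08) or 3 (2.63). Irf7 differed by 1.03 (SE 0.27), Oas1a by 1.37 (SE 0.36) and Cd74 by 0.41 (SE 0.11), with limma adjusted p-values of 0.0659, 0.0681 and 0.0628. Oas1a, Cd74 and Ifi30 did not overlap between these groups, which 15.8% of all probes shared.

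In the value table's placement Irf7 (0.55) and Oas1a (1.09) kept the sign in this comparison, while Cd74 (-0.17) and Ifi30 (-0.57) had the opposite one. None was called by limma, and none had an unadjusted p under 0.05, beside 0.172% of all probes called higher and 0.0202% lower. Before adjustment, 434 probes had a p under 0.05 there (limma). Irf7 and Oas1a did not overlap between the groups in that form, nor did 8.44% of all probes.

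In the stenotic branch against the NIH vein, a comparison of vessels that both had fistula surgery and a lesion, the scanner files gave differences of 1.08 (SE 0.24) for Irf7, 1.45 (SE 0.33) for Oas1a, 0.42 (SE 0.10) for Cd74 and 1.12 (SE 0.42) for Ifi30. Adjusted p-values from limma were 0.186 for the first 3 and 1.0 for Ifi30, all 4 had an unadjusted p under 0.05, and the comparison called 0.081% of all probes as higher and 0.0101% as lower. Of all 9879 probes, 355 had an unadjusted p under 0.05 (limma). Irf7, Oas1a and Cd74 did not overlap between these groups, against 1.13% of all probes. Without stenotic branch 3 the difference of Ifi30 was 0.54, and with an offset of 16 in the background correction that of Cd74 was 0.86, neither called. By the value table the differences were 0.30, 0.58, -0.12 and -1.07 in the same order of genes. None was called, where 0.233% of all probes were called higher and 0.0506% lower. None had an unadjusted p under 0.05 either, as 715 probes had (limma). No gene of the 4 had all stenotic branch arrays above the NIH vein, as 2.91% of all probes had.

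The NIH vein against the femoral artery set Ifi30 apart from the others. It was 1.37 higher by the scanner files (SE 0.42, limma adjusted p = 0.0784) and did not overlap, as 9.32% of all probes did not, in a comparison that called 1.56% of probes as higher and 0.759% as lower. Irf7, Oas1a and Cd74 differed there by -0.05, -0.09 and -0.01. The value table gave a difference of 0.50 for Ifi30, 0.51 for Oas1a, 0.25 for Irf7 and -0.04 for Cd74, and none of the 4 genes had all NIH vein arrays above the femoral artery, as 3.68% of all probes had. The value table called no probe at all in this comparison with limma after adjustment, and 1064 probes had an unadjusted p under 0.05.

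Against the venous-flow vein, neither the NIH vein nor the femoral artery showed a called difference for any of the 4 genes, in either form. The NIH vein, by the scanner files, differed by -0.01 for Irf7, -0.03 for Oas1a, 0.02 for Cd74 and 0.69 for Ifi30 (SE 0.35, limma adjusted p = 0.346), beside 0.0304% of all probes called higher and 0.0101% lower. None of the 4 had an unadjusted p under 0.05 in either comparison by the scanner files (limma). For the NIH vein 1601 probes of the array had one. For the femoral artery the differences were 0.04, 0.06, 0.03 and -0.68 (SE 0.41, limma adjusted p = 0.863 for Ifi30), and none of the 4 genes had all arrays of the artery above the vein, as 1.06% of all probes had. No probe of the array was called in that comparison, and 486 had an unadjusted p under 0.05. By the value table the NIH vein differed by -0.73, -0.93, -0.32 and 0.22, and the femoral artery by -0.98, -1.44, -0.28 and -0.28. For Ifi30 these rest on single arrays: without venous-flow vein 3 they were 0.75 and 0.24, and without venous-flow vein 4 they were -0.28 and -0.79. At an unadjusted p under 0.05 these held 1 and 2 of the 4 genes, and limma called no probe in them, with 622 and 159 probes under 0.05 before adjustment. The comparisons of NIH vein with femoral artery and with venous-flow vein share arrays with those above.

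**Figure D2:**
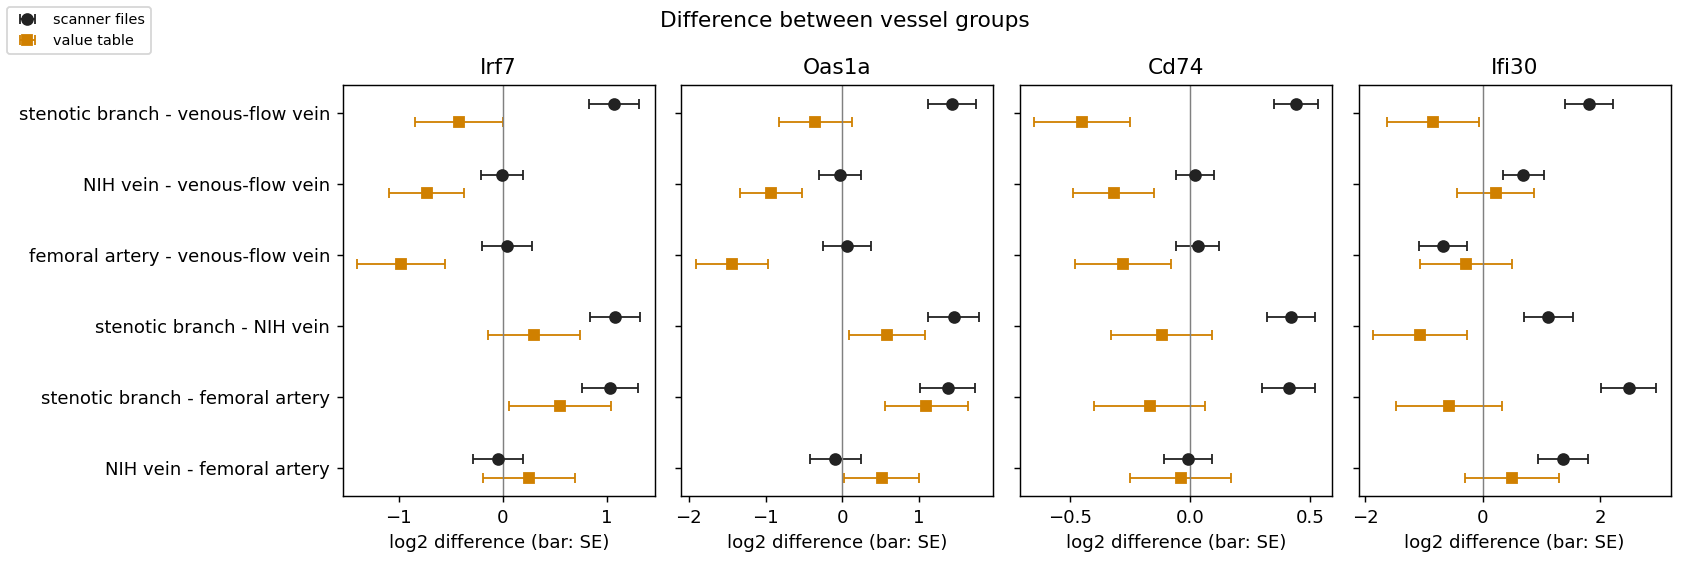
Log2 difference between 2 vessel groups (horizontal axis, first-named group minus second, bars SE of the limma contrast) for each gene, by the scanner files (circles) and by the value table (squares). The differences of stenotic branch minus venous-flow vein lie between 0.44 and 1.82 by the scanner files and between -0.85 and -0.35 by the value table.

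Once arrays are matched, levels of the scanner files and of the value table correlated at 0.998 to 0.999 for the 4 genes (Pearson, 17 arrays). The 3 highest arrays of Oas1a and of Cd74 are the 3 filed as stenotic branch, which are venous-flow veins 1 to 3 in the value table. By the scanner files these 3 arrays were the highest for 0.466% of all probes. Irf7 has in place 3 the array filed as femoral artery 1 (venous-flow vein 4 in the table), and Ifi30 has NIH vein 3. Within the value table, venous-flow veins 1 to 3 lay above 4 to 6 for Oas1a, Cd74 and Ifi30, as 15.8% of all probes did. These are the arrays filed as stenotic branch and as femoral artery, so this repeats the lack of overlap given above for those files.

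The spread inside groups can be read under both placements. With the same scanner values, the pooled within-group SD with the samples of the files, and then with those of the value table, was 0.35 and 0.48 for Irf7 and 0.47 and 0.59 for Oas1a. It was 0.12 and 0.18 for Cd74 and 0.60 and 1.03 for Ifi30. The median of this SD over all probes was 0.25 and 0.26. On 11 arrays the deposited background equals the mean of 2 other arrays, while signal minus background still matched a table column on each of them. As filed, these are all venous-flow veins, all femoral arteries and stenotic branches 2 and 3, and the 2 forms place each of them with different samples. No NIH vein is among them. As filed, kind of background and vessel therefore cannot be told apart where the NIH vein is compared with the venous-flow vein or femoral artery. They are partly tied in its comparison with the stenotic branch, where only array 1 is not filled. By the value table, all stenotic branch and femoral artery columns are filled arrays, so the NIH vein cannot be told apart in this way from either. There venous-flow vein 1 is the array that is not filled. On the same 11 arrays, 93.19% to 100.0% of the signals of spots outside the value table also equal the mean of those 2 arrays, and these spots were not used.

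The 4 genes were then compared over arrays with no use of sample labels. Over the 17 arrays Irf7 and Oas1a had a Pearson r of 0.78 (permutation p = 0.00047, adjusted over 6 pairs 0.0028) and a Spearman rho of 0.77 (adjusted permutation p = 0.0029). Without the 2 arrays farthest from the median of Irf7, stenotic branches 3 and 1 as filed, r was 0.67, and without all 3 stenotic branch files it was 0.56 (n = 14). With group means removed it was 0.38 with the samples of the files and 0.66 with those of the value table. Of the 6 pairs this one kept the highest r without those arrays, but with group means removed Cd74 and Ifi30 had as high an r (0.38 with the samples of the files, 0.75 with those of the value table), and Irf7 and Cd74 had 0.37 and 0.79.

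In the other 5 pairs too, r was lower without the 2 farthest arrays, all of them filed as stenotic branch, than over all 17. Irf7 and Cd74 had r = 0.79 (adjusted permutation p = 0.0031) and rho = 0.48 (adjusted permutation p = 0.11), and r was 0.30 without the 2 farthest arrays and 0.10 without the 3. Cd74 and Ifi30, the antigen presentation genes, had r = 0.68 (adjusted permutation p = 0.0064) and rho = 0.56 (0.064), and r was 0.23 and 0.07 without those arrays. Irf7 and Ifi30 had r = 0.53 (adjusted permutation p = 0.04) and rho = 0.39 (0.18), with r at -0.09 and -0.29. Oas1a and Cd74 had r = 0.52 (adjusted permutation p = 0.04) and rho = 0.18 (0.49), with r at 0.22 and -0.45. Oas1a and Ifi30 had r = 0.41 and rho = 0.32, with adjusted permutation p-values of 0.10 and 0.26, and r at 0.28 and -0.18. With group means removed, r was -0.02 for Irf7 and Ifi30, -0.45 for Oas1a and Cd74 and -0.35 for Oas1a and Ifi30 with the samples of the files. It was 0.65, 0.45 and 0.57 with the samples of the value table. In these 5 pairs the relation over 17 arrays rests on the stenotic branch files, and arrays may share rats.

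Within arrays of each kind of background column the 6 correlations were positive. Over the 6 arrays whose background is not filled r ran from 0.68 to 0.90, and over the 11 with a filled background from 0.40 to 0.80. As filed, the 6 are the 5 NIH veins and stenotic branch 1, and the 11 include stenotic branches 2 and 3. Each kind thus keeps stenotic branch files, on which most of these relations rest, so this split is no check of them. The r of the 6 pairs by the value table ran from 0.38 to 0.78 over 17 arrays.

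**Figure D3:**
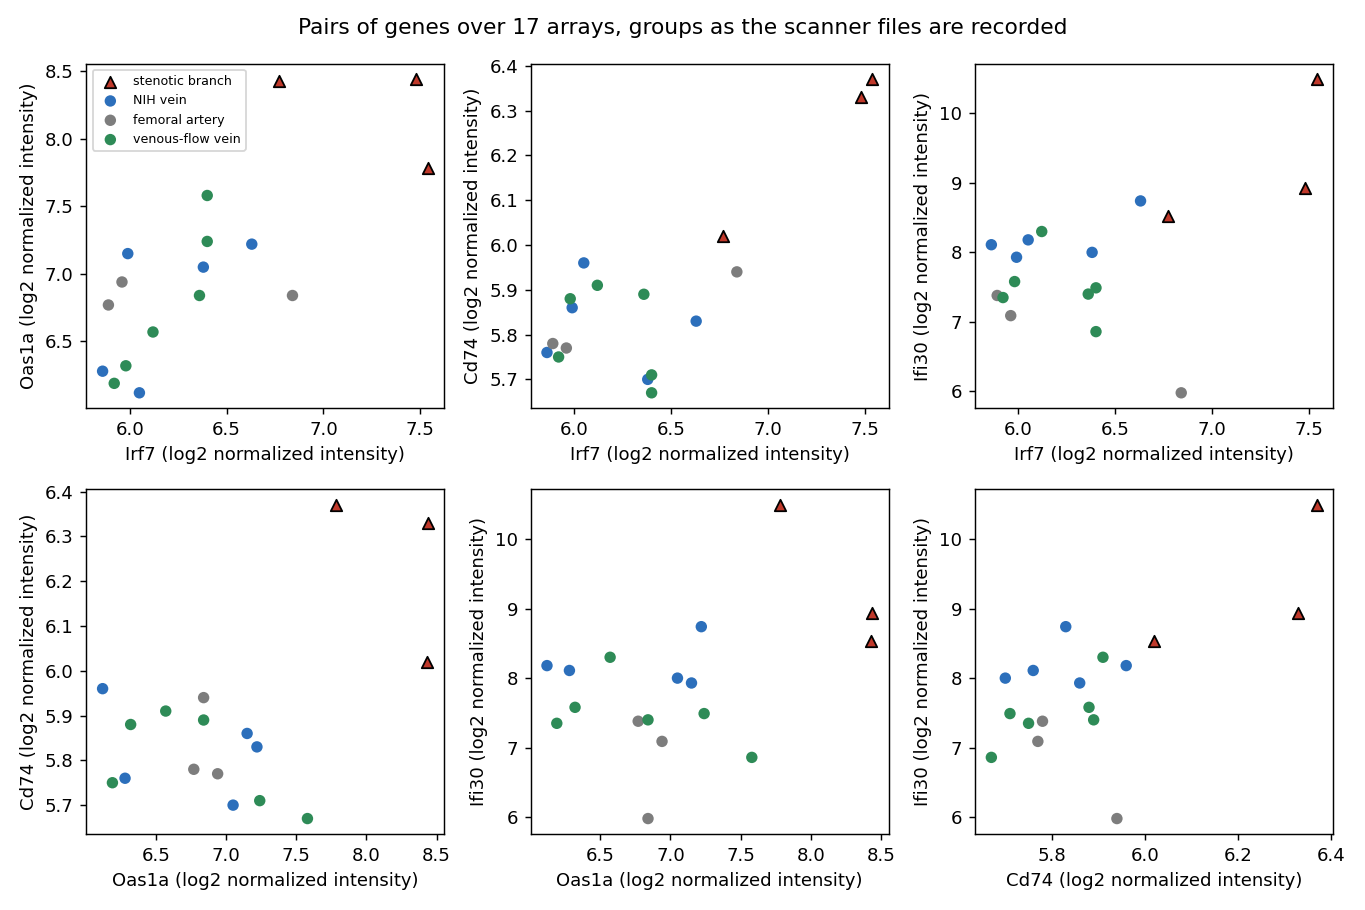
Levels of each pair of the 4 genes over 17 arrays (both axes log2 normalized intensity by the scanner files), coloured by the group of the file; triangles are the 3 stenotic branch files. Irf7 and Oas1a (r = 0.78) vary together also among the circles, where r is 0.56, while for Oas1a and Cd74 (r = 0.52) r is -0.45 among the circles.

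Genes most like each member were taken as the 4 symbols of highest Pearson r with it over the 17 arrays, a description that shares arrays, depth and scaling with the values above. Irf7 was closest to Ptpn6 (r = 0.883), the phosphatase SHP-1 of blood cells, Tyrobp (0.835), an adaptor of myeloid receptors, C5ar1 (0.824), a complement receptor, and Coro1a (0.815), a leukocyte actin regulator. Oas1a was closest to Slpi (r = 0.764), a secreted protease inhibitor, the chemokine Ccl6 (0.761), and Gbp2 (0.751) and Ube2l6 (0.732), both interferon-induced genes. Cd74 was closest to C1qb (r = 0.891), a chain of complement C1q made by macrophages, Prkcb (0.889), a protein kinase C, Coro1a (0.853) and Itpr2 (0.852), an inositol trisphosphate receptor. Ifi30 was closest to Fabp5 (r = 0.908), a fatty acid-binding protein, Cstb (0.893), an inhibitor of lysosomal cathepsins, Plod1 (0.892), a collagen lysyl hydroxylase, and Ubfd1 (0.887).

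Among the neighbours above, Tyrobp and C1qb had the largest differences of stenotic branch minus venous-flow vein by the scanner files. Both changed sign by the value table, as did Coro1a (1.34, then -1.18) and C5ar1 (1.98, then -1.36). Gbp2 kept its sign (0.67, then 0.28), and the other neighbours are not given in both forms. All were picked from these same arrays for following the genes described here, so their p-values are no independent test. Tyrobp by the scanner files averaged 9.35 ± 1.02 (SD, n = 3) in the stenotic branch and 7.13 ± 0.36 (n = 6) in the venous-flow vein, a difference of 2.22 (limma adjusted p = 0.00749). Its averages by the value table were 6.68 ± 0.44 in the stenotic branch and 8.12 ± 1.44 in the venous-flow vein, a difference of -1.44 (limma adjusted p = 0.764). C1qb by the scanner files averaged 9.98 ± 1.39 in the stenotic branch and 7.17 ± 0.89 in the venous-flow vein, a difference of 2.81 (limma adjusted p = 0.0523), and by the value table the difference was -2.09.

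Of 143 other genes listed for the interferon and presentation pathways, 34 had a probe with a value, and few of the classic ones were among them. Interferon signalling and sensing had 4 of 35 listed genes, interferon-induced genes 9 of 54, MHC class II presentation 9 of 23 and MHC class I presentation 12 of 31. In the stenotic branch against the venous-flow vein by the scanner files, the mean was higher for 3 of the 4 signalling genes (median log2 difference 0.02) and 4 of the 9 induced genes (-0.10). It was higher for 8 of the 9 class II genes (0.42) and 6 of the 12 class I genes (0.01). Over all probes 53.7% were higher, with a median of 0.02, and none of the 34 genes was called by limma, 6 of them with an unadjusted p under 0.05. Of the same lists 1 of 4 (-0.13), 8 of 9 (0.15), 3 of 9 (-0.33) and 8 of 12 (0.02) were higher by the value table, beside 43.1% of all probes and a median of -0.04. There 3 of the 34 had an unadjusted p under 0.05. Of all 9879 probes, 1703 by the scanner files and 624 by the value table had such a p (limma). The counts of 6 and 3 among the 34 genes are thus near the share over all probes.

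Among the signalling genes, Irf3, which acts below the sensors of viral nucleic acid, averaged 7.65 ± 0.37 (SD, n = 3) in the stenotic branch and 7.14 ± 0.42 (n = 6) in the venous-flow vein by the scanner files. The difference was 0.52 (limma adjusted p = 0.549), and -0.74 by the value table. Socs3, an inhibitor of cytokine receptor signalling, lay near the floor and differed by 0.04 and -0.18 in these forms.

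Differences of the 9 induced genes ran from -1.42 to 0.70 by the scanner files, 4 of them above 0, and from -0.14 to 0.41 by the value table, 8 of them above 0. Gbp2, a GTPase of the guanylate-binding family, averaged 7.91 ± 0.61 in the stenotic branch and 7.24 ± 0.56 in the venous-flow vein by the scanner files, a difference of 0.67 (limma adjusted p = 0.361). Irgm, another interferon-induced GTPase, had the opposite sign, with 6.46 ± 0.58 in the stenotic branch and 7.88 ± 1.31 in the venous-flow vein (difference -1.42, limma adjusted p = 0.269). Their differences by the value table were 0.28 and 0.09.

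The class II partners of Cd74 showed small differences. RT1-Da, an alpha chain of the rat class II molecule, differed by 0.42 between stenotic branch and venous-flow vein by the scanner files (limma adjusted p = 0.412) and by 0.15 by the value table. RT1-Db1, a beta chain, differed by -0.22 and -0.73, and RT1-DMa, a chain of the peptide loader, by 0.12 and -0.29. These 3 lay near the floor by the scanner files, with means of 5.92 to 6.69 in these groups, where differences are compressed. The largest differences of the class II list in this comparison were 2.24 for Ctsb and 1.68 for Ctsd by the scanner files (limma adjusted p = 0.105 and 0.154). By the value table they were -0.92 and -0.33. The 3 genes above and Ctsb and Ctsd fell outside the rule for naming and were chosen after their values were seen. Ctsl, a lysosomal protease, was the only one of the 34 genes called in any comparison. It was higher by 2.92 by the scanner files in the stenotic branch against the femoral artery and by 3.69 in the NIH vein against the femoral artery (limma adjusted p = 0.0448 and 0.0158), and by 0.63 and 2.48 by the value table. By the scanner files these comparisons called 1.19% and 1.56% of all probes as higher. Levels of Ctsl by the scanner files were 9.84 ± 1.35 (SD, n = 3) in the stenotic branch, 10.60 ± 0.57 (n = 5) in the NIH vein, 6.91 ± 0.65 (n = 3) in the femoral artery and 8.54 ± 0.94 (n = 6) in the venous-flow vein. By the scanner files Ctsl, like Ifi30, thus had its lowest mean in the femoral artery, as did Ctsb, Ctsd and the class I gene B2m. By the value table Ifi30 had its lowest mean in the stenotic branch (6.97) and Ctsl in the femoral artery (8.09). Ctsl was not called in any comparison by the value table.

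Among class I genes, B2m, the light chain of class I molecules, averaged 11.01 ± 0.37 (SD, n = 3) in the stenotic branch and 9.67 ± 0.85 (n = 6) in the venous-flow vein by the scanner files. The difference was 1.34 (limma adjusted p = 0.172), and 0.21 by the value table. Psmb9, an immunoproteasome subunit induced by interferon gamma, differed by 0.53 (limma adjusted p = 0.123) and by -0.06. The 6 measured RT1 class I genes had differences between -0.09 and 0.18 by the scanner files and between -0.19 and 0.53 by the value table. Their means by the scanner files were 5.89 to 6.38 in these groups, near the floor, where differences are compressed.

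**Figure D4:**
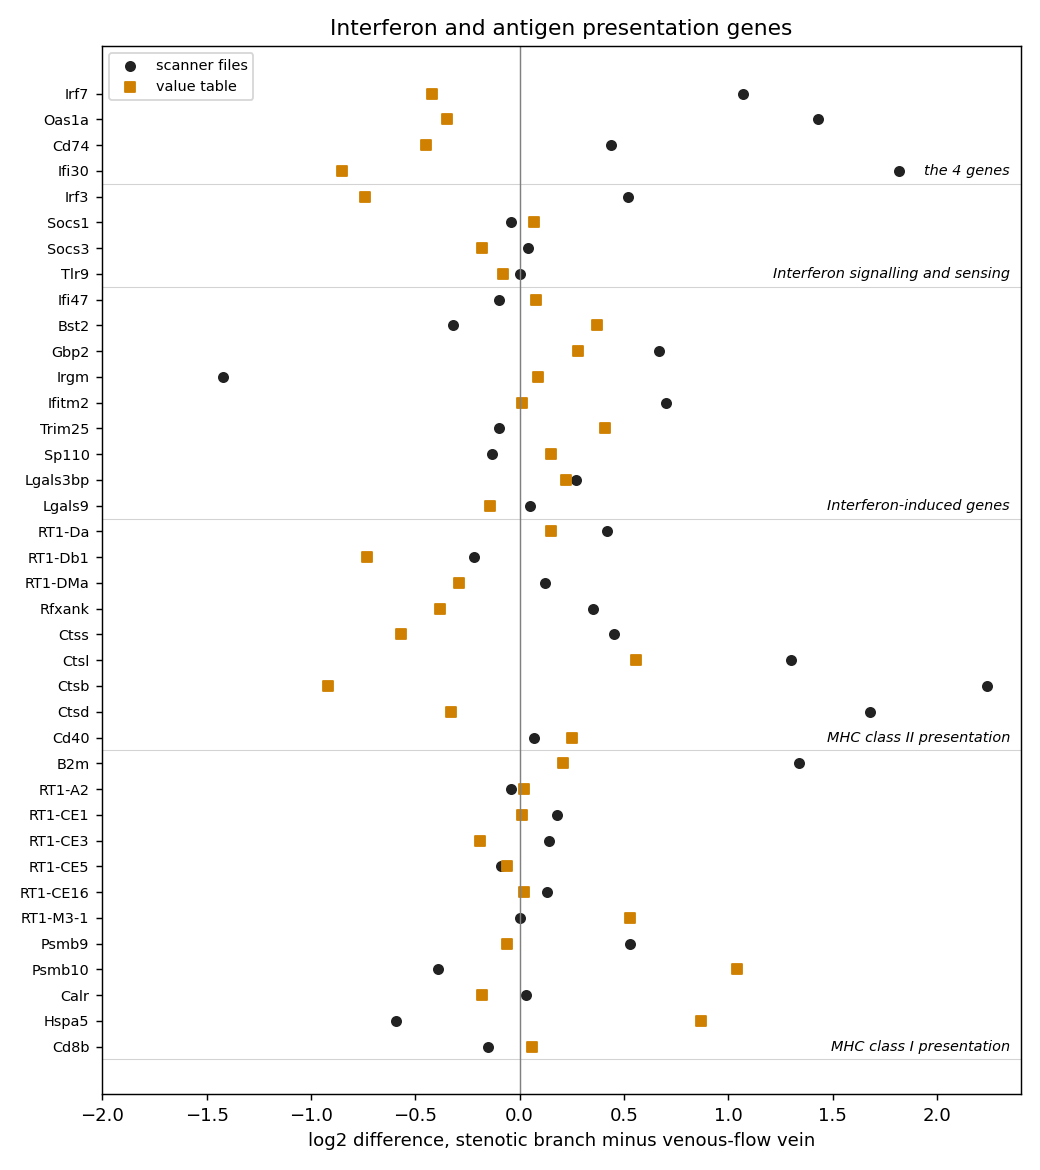
Log2 difference of stenotic branch minus venous-flow vein (horizontal axis) for the 4 genes and the 34 measured genes of 4 pathway lists, by the scanner files (circles) and by the value table (squares). The 4 genes lie right of 0 by the scanner files and left of 0 by the value table; the 34 others spread from -1.42 to 2.24 by the scanner files and from -0.92 to 1.04 by the value table.

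Markers of myeloid cells were high in the same arrays as the 4 genes. Of 28 listed myeloid markers 12 were measured. By the scanner files 11 of these were higher in the stenotic branch than in the venous-flow vein, with a median difference of 0.79, and 4 were called (Tyrobp, Coro1a, Lyn and C5ar1). Their summed level ran from 2441 to 7179 intensity units in the stenotic branch, 1106 to 2131 in the NIH vein, 1323 to 1545 in the femoral artery and 1035 to 1968 in the venous-flow vein. None of the 12 was higher by the value table (median -0.70), and the sums ran from 751 to 993, 811 to 1825, 743 to 1661 and 1023 to 6863 in the same groups. The defining marker Csf1r was near the floor in both of those groups by the scanner files (5.91 ± 0.05 in the stenotic branch and 5.96 ± 0.15 in the venous-flow vein), and Cd68 differed by 0.04. By the value table Csf1r averaged 5.27 ± 0.31 in the stenotic branch and 5.39 ± 0.55 in the venous-flow vein, and Cd68 differed by -0.74. None of the listed markers of dendritic cells and of B cells had a value, and 1 of T and natural killer cells did. The part of myeloid cells in the levels of the 4 genes was not tested.

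Among fibroblast markers, Col1a2 and Thy1 were, by the scanner files, high in the stenotic branch and NIH vein and low in the femoral artery, as Ifi30 was. Of 7 listed markers 4 were measured, and by the scanner files the means of all 4 in the stenotic branch and the NIH vein exceeded those of the artery. Their summed level by the scanner files ran from 10953 to 38158 intensity units in the stenotic branch, 9846 to 39393 in the NIH vein, 728 to 3238 in the femoral artery and 2347 to 11172 in the venous-flow vein. Col1a2, a chain of type I collagen, was higher by 4.39 in the stenotic branch and by 4.28 in the NIH vein, each against the femoral artery (limma adjusted p = 0.0243 and 0.016). Thy1, a surface protein of fibroblasts, differed by 0.97 and 0.99 in these comparisons, of which the NIH vein's was called (limma adjusted p = 0.0565 and 0.0317). Col3a1 differed by 1.00 and 0.98, not called (limma adjusted p = 0.681 and 0.642). Dcn lay near the floor and differed by 0.26 and 0.05, not called. Col1a2 averaged 14.39 in the stenotic branch, against 9.14 for Col3a1, so the summed level is largely that of Col1a2. By the value table none of the 4 was higher in the stenotic branch than in the femoral artery and 2 were in the NIH vein, none called. The sums there ran from 2671 to 9325 in the stenotic branch, 9742 to 39290 in the NIH vein, 2243 to 11067 in the femoral artery and 627 to 38059 in the venous-flow vein. The part of fibroblasts in the levels of Ifi30 was not tested.

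The labelled cell type could be checked with 1 of 17 endothelial markers only. Kdr, the VEGF receptor 2, averaged 8.01 ± 0.82 (SD, n = 3) in the stenotic branch, 6.93 ± 0.32 (n = 5) in the NIH vein, 6.06 ± 0.21 (n = 3) in the femoral artery and 6.93 ± 0.75 (n = 6) in the venous-flow vein by the scanner files. It averaged 6.90 ± 0.95, 6.58 ± 0.40, 6.18 ± 1.02 and 6.62 ± 1.46 in the same groups by the value table. Gja5, a connexin of arterial endothelium, averaged 8.79 ± 0.71 in the femoral artery and 7.80 ± 0.85 in the venous-flow vein by the scanner files, and 8.16 ± 0.45 and 7.48 ± 1.47 by the value table. The artery had the higher mean of Gja5 in both forms, with no call in either. Gja4, the other measured arterial marker, averaged 6.38 in the artery and 6.16 in the venous-flow vein by the scanner files, and 5.87 and 5.78 by the value table. The venous marker Aplnr averaged 6.90 ± 1.06 and 6.33 ± 0.38 by the scanner files, higher in the artery, and 5.95 and 6.14 by the value table. Nr2f2, also venous, lay near the floor at 5.89 and 6.03 by the scanner files, and averaged 5.29 and 5.19 by the value table, higher in the artery there. None of these was called. In the comparison that called Ifi30, the stenotic branch against the femoral artery, Kdr was higher by 1.95 (limma adjusted p = 0.0465) and Gja5 differed by -2.08 (limma adjusted p = 0.0472) by the scanner files. By the value table these differences were 0.72 and -1.16, not called. Gja4 differed by -0.13 by the scanner files and -0.62 by the value table, not called either.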

How the data were processed

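Luminal endothelium of 17 vessel regions was measured on single-colour arrays. Each RNA specimen joined 10 laser captures (10 µm sections), and 50 ng was amplified, per the labels. The deposited scanner files hold mean signal and mean background as raw intensity, not normalized, per the file headers. The deposited value table holds log2 values of signal minus background, quantile normalized, as found by setting it against the scanner files. It has values for 10000 of 41372 gene spots (9879 probes), and 3119 of these (31.2%) match 1 symbol of the RefSeq table (GRCr8). No source used here names the scanner. The array median of signal minus background was 28.5 to 80.9 units, and precision is limited by how many arrays there are.

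With limma 3.58.1 (R 4.3.3), the normal-exponential background correction with an offset of 50 was followed by log2 and by quantile normalization of the 10000 spots, and spots of a probe were averaged. One limma fit to 17 arrays gave the F test and 6 contrasts, with 2-sided p-values, Benjamini-Hochberg adjusted over 9879 probes. It was tested on simulated data. Permutation p-values used 100000 resamples (scipy 1.17.1); other steps used Python 3.11.15, pandas 2.3.3, numpy 2.4.6 and matplotlib 3.10.9. No tie of regions to rats enters a fit. Replicate numbers were not used as pairs: same-numbered arrays correlated between -0.609 and 0.321 after group means were removed (20 pairs), and 1 of 17 arrays was closest to its own number.

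The genes, lists and tests were chosen with earlier results of these data known. One listed pathway gene is not reported here and enters no list count. Named beside the 4 genes are pathway list members called in any comparison in either form, or else the 2 of a list with the smallest F test p, and the 4 symbols most like each gene. Cell type markers were named after their values were seen. Alternatives covered the value table, its placement of samples, background, offset, scaling, the brighter probes, single arrays left out, fits on fewer groups and a replicate block.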

Additional observations from a re-analysis of the deposited data

How the results depend on the processing

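The placement of samples decides most results. With scanner values and the samples of the value table, stenotic branch minus venous-flow vein was -0.36 for Irf7, -0.31 for Oas1a, -0.28 for Cd74 and -0.82 for Ifi30. Stenotic branch minus NIH vein was -0.07 for Cd74 and -0.94 for Ifi30, and minus femoral artery -0.09 and -0.49. NIH vein minus venous-flow vein was -0.21 for Cd74, and NIH vein minus femoral artery 0.18 for Irf7 and 0.40 for Oas1a. Femoral artery minus venous-flow vein was -0.75 for Irf7, -1.18 for Oas1a and -0.19 for Cd74, and the F test of Ifi30 had an adjusted p of 0.908 (limma). In that placement 0 of the 4 genes were called in stenotic branch against femoral artery. With the value table itself those values, in the same order, were -0.42, -0.35, -0.45, -0.85, -0.12, -1.07, -0.17, -0.57, -0.32, 0.25, 0.51, -0.98, -1.44 and -0.28, with 0.911 for the F test and 0 genes called.

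Calls by the scanner files lay near the threshold. In stenotic branch against venous-flow vein, 1 gene was called with plain background subtraction or an offset of 16 (Cd74, 0.67 and 0.91), 2 without background correction (Irf7 0.85, Cd74 0.40) and 3 among the brighter probes (Irf7 1.07, Oas1a 1.43, Ifi30 1.82), where Cd74 has no value. In that comparison 0.628%, 0.688%, 0.375% and 0.931% of all probes were called as higher in these settings. Among the brighter probes Ifi30 was also called in NIH vein against femoral artery (1.37, 1 gene, beside 7.29% of these probes) and Oas1a in the F test (limma adjusted p = 0.0448). Without background correction, which adds the filled background back, 3 genes were called in stenotic branch against femoral artery (Irf7 0.87, Cd74 0.46 and Ifi30) beside 0.921% of all probes called as higher, and the F test gave 0.0452 for Irf7 and Cd74 and 0.0507 for Ifi30 (limma). Signs turned there for differences near 0: Irf7 0.01 and Cd74 0.09 in NIH vein minus femoral artery, -0.03 and -0.06 in femoral artery minus venous-flow vein. Median scaling left Ifi30 uncalled in stenotic branch against femoral artery (2.27, 0 genes) and in the F test (0.0636, limma). It gave 0.15 for Irf7 and 0.32 for Oas1a in NIH vein minus femoral artery, -0.15 and -0.21 in femoral artery minus venous-flow vein, and 0.12 for Oas1a and -0.16 for Cd74 in NIH vein minus venous-flow vein. Fitted on stenotic branch and femoral artery alone, Ifi30 differed by 2.49 and was not called (0 genes). With the replicate number as a block it was not called either (2.49, 0 genes, F test adjusted p 0.121, limma), Irf7 in NIH vein minus venous-flow vein was 0.02, and the F test of Ifi30 by the value table with that block, an alternative chosen after seeing the data, gave 0.652. Beyond construction, the cause of these changes was not tested.

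Leaving out 1 array at a time, the F test's adjusted p (limma) ran from 0.0334 to 0.0808 for Ifi30, 0.0455 to 0.207 for Cd74, 0.0463 to 0.215 for Irf7 and 0.0405 to 0.200 for Oas1a. Stenotic branch minus venous-flow vein ran from 0.93 to 1.32 for Irf7, 1.31 to 1.65 for Oas1a, 0.37 to 0.55 for Cd74 and 1.23 to 2.21 for Ifi30. In that comparison 0 to 4 genes and 0.081% to 1.52% of all probes were called as higher. Stenotic branch minus NIH vein ran from 0.54 to 1.52 for Ifi30. Stenotic branch minus femoral artery ran from 1.25 to 1.59 for Oas1a, 0.35 to 0.52 for Cd74 and 1.91 to 2.89 for Ifi30, with 0 to 3 genes and 0.0101% to 4.41% of all probes called as higher. NIH vein minus femoral artery ran from -0.22 to 0.26 for Irf7, -0.20 to 0.07 for Oas1a, -0.04 to 0.05 for Cd74 and 0.95 to 1.65 for Ifi30, with 0 to 1 gene and 0.0% to 3.4% of all probes called as higher. NIH vein minus venous-flow vein ran from -0.12 to 0.07 for Irf7, -0.15 to 0.13 for Oas1a and -0.01 to 0.05 for Cd74, and femoral artery minus venous-flow vein from -0.27 to 0.21, -0.06 to 0.22 and -0.03 to 0.06.

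Correlations turned negative for Irf7 with Ifi30 (-0.02 with group means removed, -0.09 without the 2 farthest arrays, -0.29 without the 3 stenotic branch files), for Oas1a with Cd74 (-0.45 with group means removed and -0.45 without the 3 files) and for Oas1a with Ifi30 (-0.35 and -0.18). Leaving out the 3 files, and single arrays from the value table, was chosen after seeing the data. Irf7 and Cd74 lie near the floor of 5.64 on most arrays, which limits the size of any fall they could show.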
